A study of Oryza sativa with 12 samples.

Results

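A set of 163 rice genes was strongly higher in anthers of the nup1 mutant than in wild-type anthers at stage 10, and absent from the authors' deposited table of differing genes at stage 11. The 163 were taken from 3453 genes listed at stage 10, and from 7087 listed at either stage. Each gene had to be in the stage 10 table and not in the stage 11 table, and its d had to be 2.5 or more. Here d is the mean of log2(FPKM + 1) over the 3 nup1 libraries minus that over the 3 wild-type libraries of stage 10. FPKM counts sequenced fragments scaled to transcript length and to the size of the library, so levels can be compared between genes of different length. The rule also left out 7 loci with such a d. A value of d of 2.5 or more was found in 8.49% of the 2003 genes listed at stage 10 alone. The genes were chosen by d, that is by their stage 10 levels in all 6 libraries, so these values are given as a description, and calls made on them support no result.

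The series measured poly(A) RNA of rice anthers by RNA sequencing, in wild type and nup1 at stages 10 and 11. Each of the 4 groups had 3 biological replicates. Only the 6 stage 10 libraries carry values for these genes: 3 of wild type and 3 of the nup1 mutant. The locus, allele and genetic background of nup1 are not given in the labels, nor is the number of plants behind a library. Wild-type replicate 2 was the lowest wild-type library in 115 of the 163 genes, and values without it stand beside the genes it moves most or takes under the threshold. Depth in fragments is unknown, and the number of libraries limits the precision. In bulk tissue, fewer cells of a type and less RNA per cell cannot be told apart. The tissue label could be checked only on listed genes: OsC6 (LOC_Os11g37280), a lipid transfer protein of the anther, stood at 6535 to 7243 FPKM in the wild-type libraries and at 691 to 934 FPKM in nup1. RTS (LOC_Os01g70440), an anther gene of the tapetum needed for male fertility, stood at 2759 to 6687 FPKM in wild type and at 1.48 to 40.3 FPKM in nup1.

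The tapetum is the innermost layer of the anther wall, next to the developing pollen. It makes precursors of sporopollenin, the polymer of the pollen wall, and exports them with the help of Ubisch bodies, small particles on its inner face. It then breaks down by programmed cell death, and the timing of that breakdown is linked to male fertility. The series title places the experiment in a study of an oxidative burst, of Ubisch bodies and of male sterility.

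The files give the genes as locus identifiers without names, and 0 of the 163 identifiers occur in the reference gene table. The genes are therefore given by locus, with no statement of what they encode. The number before the g is the chromosome, and the digits after it order the loci along that chromosome.

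The 10 genes with the largest d had nup1 means from 96.1 to 4349 FPKM, and 8 of them had wild-type means under 10 FPKM. LOC_Os03g56890 had the largest d. It stood at 0.162, 1.04 and 0.270 FPKM in wild-type replicates 1 to 3 and at 477, 316 and 310 FPKM in nup1 (d = 7.97 ± 0.32 SE, n = 3 per group). LOC_Os02g01980 was the steadiest of the leading genes in wild type, at 2.47, 2.84 and 2.34 FPKM, against 594, 468 and 703 FPKM in nup1 (d = 7.36 ± 0.18). In both loci the lowest nup1 library was far above the highest wild-type library, by 7.25 and 6.93 on the log2(FPKM + 1) scale.

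LOC_Os04g58120 stood at 0.839, 1.23 and 0.614 FPKM in wild type and at 188, 538 and 465 FPKM in nup1 (d = 7.59 ± 0.49). LOC_Os03g43790 went from 0.774, 0.234 and 1.29 FPKM to 126, 126 and 111 FPKM (d = 6.15 ± 0.27). LOC_Os03g24130 stood at 1.12, 0.254 and 0.233 FPKM and at 83.9, 102 and 103 FPKM (d = 6.03 ± 0.27). These 3 loci had wild-type levels close to 1 FPKM or under it, and the first of them had a low nup1 replicate 1. LOC_Os02g38260 stood at 1.51, 2.85 and 1.78 FPKM in wild type and at 213, 180 and 181 FPKM in nup1 (d = 6.002 ± 0.20).

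In another 3 of the 10, wild-type replicate 2 lay far below its group. LOC_Os02g01190 had the highest nup1 level of all 163 genes, at 3376, 4265 and 5406 FPKM, against 112, 2.29 and 103 FPKM in wild type (d = 6.98 ± 1.69). LOC_Os07g37090 stood at 28.3, 0 and 21.6 FPKM in wild type and at 567, 433 and 688 FPKM in nup1 (d = 5.99 ± 1.58). LOC_Os07g39640 stood at 4.62, 0 and 7.49 FPKM and at 354, 229 and 363 FPKM (d = 6.42 ± 0.97). Wild-type replicate 2 sets much of d in these loci: without it, d was 5.30, 4.43 and 5.49. The tenth gene, LOC_Os11g02165, had a low nup1 replicate 1, with 0.332, 1.67 and 0 FPKM in wild type and 48.5, 281 and 282 FPKM in nup1 (d = 6.69 ± 0.94).

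**Figure D1:**
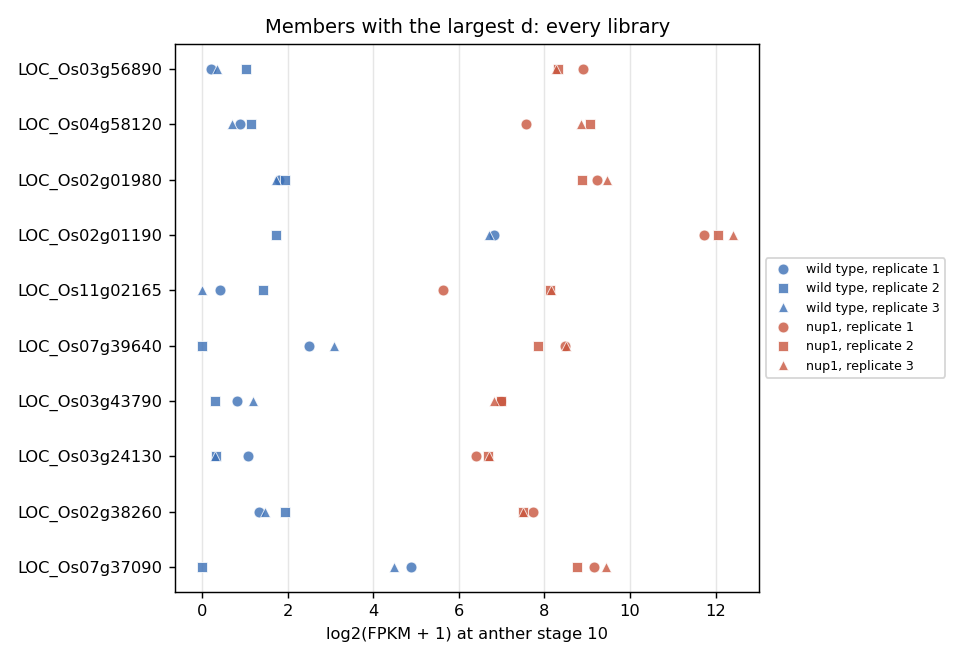
Log2(FPKM + 1) of the 10 genes with the largest d, 1 row per locus, with blue marks for the 3 wild-type libraries and red marks for the 3 nup1 libraries of stage 10. In each row all red marks lie to the right of all blue marks, and wild-type replicate 2 (blue square) lies far left of its group in LOC_Os02g01190, LOC_Os07g39640 and LOC_Os07g37090.

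Over all 163 genes, d ran from 2.503 to 7.97 with a median of 3.05, beside a median of 0.84 over all 3453 listed genes. It was 5 or more in 14 genes, from 3.5 up to 5 in 38, and under 3.5 in 111. All 163 carried the authors' direction of higher in nup1, which 56.2% of listed genes carried. The lowest nup1 library was above the highest wild-type library in 162 of the 163, and in 52.8% of all listed genes. The distance between those libraries had a median of 2.15 on the log2(FPKM + 1) scale and was over 1 in 158 genes. In a limma fit over the 3358 listed genes that averaged at least 1 FPKM, 161 of the 163 passed as higher (adjusted p under 0.01 and a fold over 2), beside 39.8% of all fitted genes. That fit called 1338 listed genes higher and 1111 lower. With every library centred on its median over the listed genes, which lowers each d by 0.20, the split was 968 higher and 1321 lower, and 161 of the 163 still passed. The rule used the same contrast, so nothing is read from these counts.

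The gene whose libraries overlapped was LOC_Os08g43240, at 0.412, 1.52 and 0.343 FPKM in wild type and 0.827, 64.6 and 85.7 FPKM in nup1 (d = 3.69 ± 1.82). Its nup1 replicate 1 was at the wild-type level, and without that library d was 5.48. It was also 1 of the pair that did not pass in limma. The other, singled out after its values were seen, was LOC_Os01g21250, whose wild-type libraries spread from 0 over 3.62 to 63.0 FPKM, against 100, 94.6 and 85.6 FPKM in nup1.

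The genes differed widely in level. The wild-type mean was under 1 FPKM in 72 of them, from 1 up to 10 FPKM in 74 and 10 FPKM or more in 17. In nup1 the mean was 100 FPKM or more in 23, from 10 up to 100 FPKM in 120 and under 10 FPKM in 20. The median of the wild-type means was 1.25 FPKM and that of the nup1 means 22.0 FPKM. Among the other 1128 genes listed higher at stage 10 alone the medians were 2.54 and 7.70 FPKM, and among the 525 listed higher at both stages 5.41 and 16.9 FPKM. The rule itself favours a low wild-type and a high nup1 level.

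In 13 of the 163, every wild-type library was under 1 FPKM and every nup1 library at 10 FPKM or more. These limits, like the genes given from them, were chosen after the values were seen. LOC_Os11g10920 led them, at 0.283, 0 and 0.552 FPKM in wild type and 90.2, 37.3 and 79.8 FPKM in nup1. LOC_Os03g47460 stood at 0.330, 0.0489 and 0.369 FPKM and at 37.1, 35.4 and 38.7 FPKM. LOC_Os04g35860 stood at 0.179, 0 and 0.120 FPKM and at 16.5, 17.5 and 16.5 FPKM. The nup1 replicates of the last pair agreed closely, while those of LOC_Os11g10920 differed by more than 2-fold.

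**Figure D2:**
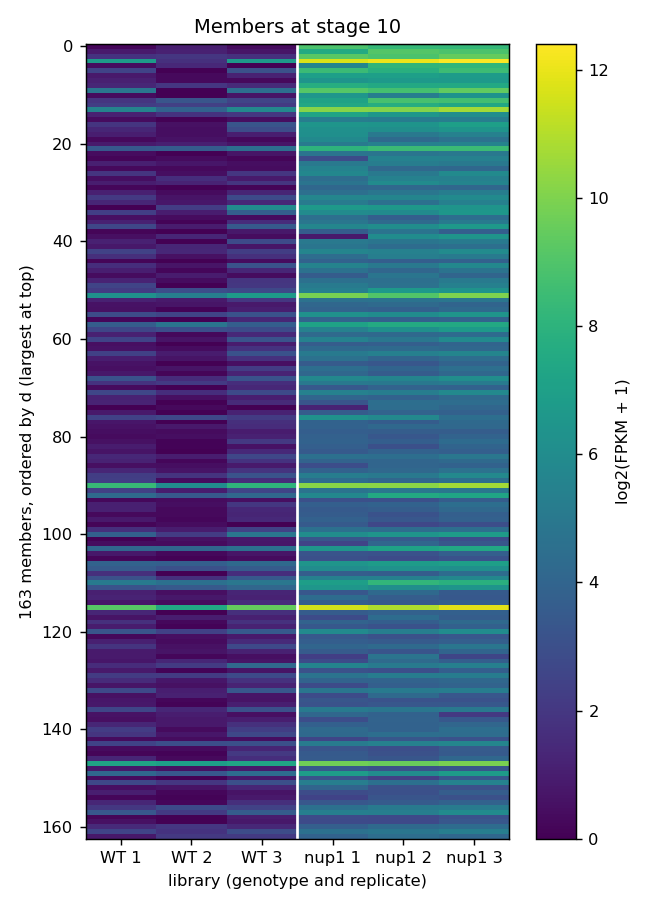
Log2(FPKM + 1) of all 163 genes, 1 row per gene from the largest d at the top to the smallest at the bottom, in the 3 wild-type (left) and 3 nup1 (right) libraries of stage 10. The nup1 columns are brighter in nearly every row, and the column of wild-type replicate 2 is the darkest of the wild-type columns in 115 rows.

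A few loci carried most of the signal. Summed over the 163 genes, the wild-type libraries held 1723, 693 and 2096 FPKM and the nup1 libraries 17872.5, 17981.6 and 23699.4 FPKM. That was 0.379% to 1.38% of the summed FPKM of all listed genes in wild type and 14.3% to 17.3% in nup1. The 10 genes with the highest nup1 mean made up 67.9% of the summed nup1 means. The other 153 genes together stood at 446 ± 198 FPKM in wild type and 6379 ± 811 FPKM in nup1 (SD, n = 3).

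**Figure D3:**
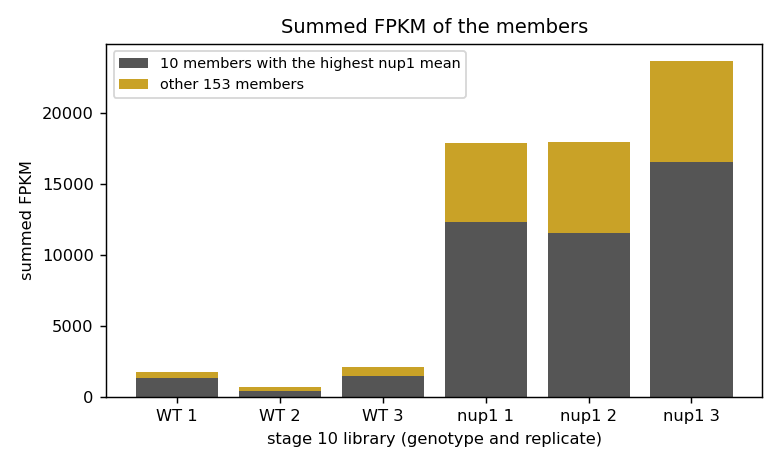
Summed FPKM of the 163 genes in each stage 10 library, with the 10 genes of highest nup1 mean in grey and the other 153 in yellow. The nup1 bars reach 17872.5 to 23699.4 FPKM, the wild-type bars 693 to 2096 FPKM, and the grey part is the larger part of every bar.

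Several of the most abundant loci were already expressed in wild type. LOC_Os01g14850 had the highest wild-type level, at 580, 170 and 717 FPKM, and stood at 3027, 1928 and 3699 FPKM in nup1 (d = 2.75 ± 0.70). LOC_Os01g14880, a close neighbour by its locus number, stood at 329, 63.9 and 268 FPKM in wild type and 1180, 1231 and 1664 FPKM in nup1 (d = 2.91 ± 0.75). In both, wild-type replicate 2 was the lowest library, and without it d was 2.11 and 2.17, under the threshold of 2.5.

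LOC_Os04g34170 was steadier, at 151, 120 and 158 FPKM in wild type and 849, 754 and 960 FPKM in nup1 (d = 2.57 ± 0.16, and 2.45 without wild-type replicate 2, under the threshold). LOC_Os11g02330 stood at 75.2, 39.1 and 108 FPKM and at 935, 524 and 1025 FPKM (d = 3.52 ± 0.52, and 3.13 without that library). LOC_Os03g47910 stood at 46.2, 14.1 and 53.8 FPKM in wild type and at 1138, 1089 and 1619 FPKM in nup1 (d = 5.22 ± 0.62, and 4.63 without it). The nup1 libraries of all 5 of these loci lay above their wild-type libraries without overlap.

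Wild-type replicate 2 stood apart in these genes more often than the other wild-type libraries. It was the lowest wild-type library in 115 of 163 genes (70.6%), and replicate 3 was the highest in 113 (69.3%). Replicate 2 lay more than 1 log2 unit below both other wild-type libraries in 32 genes (19.6%), and in 22 genes it was listed at exactly 0, against 2 for each other wild-type library. Among the other 1128 genes listed higher at stage 10 alone replicate 2 was lowest in 59.8%, and more than 1 log2 unit below both in 4.17%. Replicate 3 was the highest in 51.8% of them. Among the 525 listed higher at both stages, replicate 2 was lowest in 61.3%, and more than 1 log2 unit below both in 8.95%. Replicate 3 was the highest in 63.4% of those 525, so the order of the libraries is not particular to the 163. It lay more than 1 log2 unit above both others in 15 of the 163 (9.20%) and in 20.4% of the 525. Over all listed genes replicate 2 was lowest in 36.9%, and more than 1 log2 unit below both in 3.79%. A low wild-type library raises d, and how far the rule took genes for that reason was not tested.

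Genes of the opposite direction had the opposite order. In the 59 genes with d of -2.5 or less at stage 10 alone, wild-type replicate 2 was the highest wild-type library in 45 (76.3%). The nup1 libraries were mirrored too: nup1 replicate 3 was the highest in 93 of the 163 genes (57.1%) and the lowest in 42 of those 59 (71.2%). It was the highest in 29.8% of all listed genes and in 41.6% of the other 1128 listed higher at stage 10 alone. In the 525 listed higher at both stages it was the highest in 24.4%, so that group did not share the order. Wild-type replicate 2 was the highest wild-type library in 44.5% of all listed genes as well, and in 17.4% of the 1942 listed higher. A high nup1 library raises d and a low one lowers it. What part the choice by d had in these orders was not tested. These counts of libraries are descriptions and were not tested.

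Without wild-type replicate 2, 124 genes met the rule, 122 of them among the 163, and the median d of the 163 was 2.78. Spread was wider in wild type than in nup1: the SD of log2(FPKM + 1) was larger in wild type in 114 of 163 genes (69.9%). That share was 62.9% of all listed genes and 71.4% of the 525 listed higher at both stages, so it is not particular to the 163. The median SDs were 0.51 in wild type and 0.32 in nup1, and 0.33 and 0.25 over all listed genes.

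Some marker lists were also highest or lowest in wild-type replicate 2. Of 5 genes of late pollen and sugar supply, 4 were listed at stage 10, all lower in nup1, and none was listed at 0. Their summed level was 181, 428 and 156 FPKM in wild-type replicates 1 to 3 and 15.1, 26.0 and 21.7 FPKM in nup1. In that list INV4 (LOC_Os04g33720), a cell-wall invertase that splits sucrose for the anther, stood at 13.6, 118 and 6.43 FPKM in wild type, while LOC_Os01g16810 stood at 65.1, 60.2 and 42.9 FPKM and was not highest in replicate 2. The 3 listed photosynthesis loci also summed highest there, at 205, 367 and 212 FPKM in wild type against 329, 265 and 342 FPKM in nup1. One of them, LOC_Os03g39610, was higher in nup1 and yet highest in wild-type replicate 2, at 81.8, 151 and 84.7 FPKM. The 14 listed pollen wall and cuticle loci summed to 11414, 14876 and 12470 FPKM in wild type. RTS alone, at 2759, 6687 and 4223 FPKM, made that sum highest in replicate 2. OsC6 was not highest there, at 7243, 7194 and 6535 FPKM, and several loci of the list, CYP703A3 (LOC_Os08g03682) among them, were lowest there. The 2 listed tapetum regulators summed to 3.92, 9.94 and 4.39 FPKM but had opposite orders. TDL1A was highest in replicate 2, at 2.22, 9.63 and 3.04 FPKM, and PTC1 was lowest there, at 1.70, 0.309 and 1.35 FPKM. The part of these markers in the values of the 163 genes was not tested.

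Of 4 tapetal cell death genes, 3 were listed, all higher in nup1, with sums of 246, 97.9 and 406 FPKM in wild type and 913, 1320 and 1436 FPKM in nup1. This sum was lowest in wild-type replicate 2, and AP25 alone made up most of it, at 237, 93.1 and 393 FPKM in wild type. AP25 (LOC_Os03g08790), an aspartic protease of tapetal cell death, and CP1 (LOC_Os04g57490), a cysteine protease, were listed higher at both stages and so fall outside the set. CP1 was also lowest in wild-type replicate 2, at 7.95, 3.56 and 11.5 FPKM in wild type. AP37 (LOC_Os04g37570), the other aspartic protease, was 1 of the 7 loci left out, with d of 6.21, and its lowest wild-type library was replicate 1.

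None of the 51 loci in the 7 lists used here (tapetum regulators, pollen wall and cuticle, tapetal cell death, late pollen and sugar supply, meiosis, photosynthesis, floral organs) was among the 163 genes. This follows from the rule: all 7 loci it leaves out are in these lists, and no other list locus with d of 2.5 or more was listed at stage 10 alone. Of 18 pollen wall and cuticle loci, 14 were listed at stage 10, 10 higher and 4 lower, with 5 of them among the loci left out by the rule. One of the 10, CYP703A3 (LOC_Os08g03682), a fatty acid hydroxylase of sporopollenin synthesis, stood at 36.9, 5.93 and 50.1 FPKM in wild type and at 333, 423 and 456 FPKM in nup1 (d = 4.08 ± 0.91), but was listed lower at stage 11. Of 9 tapetum regulators 2 were listed at stage 10. PTC1 (LOC_Os09g27620), a regulator of tapetal development, was higher and is 1 of the loci left out, at 1.70, 0.309 and 1.35 FPKM in wild type and 25.4, 32.6 and 28.9 FPKM in nup1. TDL1A (LOC_Os12g28750) was listed lower, at 2.22, 9.63 and 3.04 FPKM in wild type and 1.59, 2.01 and 3.04 FPKM in nup1 (d = -0.71 ± 0.56). Its libraries overlapped, and wild-type replicate 2 set much of the difference. Of 4 photosynthesis loci, 3 were listed, 1 higher and 2 lower, and of 5 meiosis and 6 floral organ loci 0 were listed at stage 10.

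A smaller group of genes showed another order of libraries. In 26 of the 163 (16.0%), wild-type replicate 2 was the highest wild-type library. That share was 16.7% of the other 1128 genes listed higher at stage 10 alone and 13.1% of the 525 listed higher at both stages. It was 44.5% of all listed genes, so such an order is not particular to the 163. In 16 of these 26 (61.5%) nup1 replicate 1 was the lowest nup1 library, against 53 of the other 137 (38.7%). Among the other genes listed higher at stage 10 alone the same shares were 43.6% and 37.3%. They were 42.0% and 32.5% among the genes listed higher at both stages, and 29.9% and 34.0% among all listed genes. Of the 14 genes with d of 5 or more, 7 were among these 26, against 19 of the 149 with a smaller d.

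The 5 genes with the widest spread over the nup1 libraries, among those with a nup1 mean of 10 FPKM or more, came mostly from this group. LOC_Os09g27940 stood at 0.112, 0.299 and 0.141 FPKM in wild type and at 6.03, 44.0 and 42.1 FPKM in nup1 (d = 4.34 ± 0.89). LOC_Os03g52160 stood at 1.32, 20.9 and 16.1 FPKM in nup1, with 0.239 FPKM in wild-type replicate 2 and 1.85e-07 and 1.5e-07 FPKM in replicates 1 and 3 (d = 3.15 ± 1.03). With LOC_Os08g43240 and LOC_Os11g02165, given above, these loci had their lowest nup1 level in replicate 1 and their highest wild-type level in replicate 2. The fifth, LOC_Os01g63540, was high in nup1 replicate 2 alone, at 4.001, 26.6 and 5.12 FPKM, and without that library its d was 1.93.

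Across the 163 genes, the deviation of wild-type replicate 2 and that of nup1 replicate 1, each from the mean of the other libraries of its group, were weakly and negatively correlated (Pearson's r = -0.20, Spearman's rho = -0.13). Genes share the same libraries and are not independent, so these values are a description with no p. Across all 3453 listed genes the values were -0.02 and -0.0015. They were negative in the most similar groups too, at -0.10 and -0.12 across the other genes listed higher at stage 10 alone, and at -0.16 and -0.16 across the genes listed higher at both stages. They were -0.32 and -0.26 across the 59 genes with d of -2.5 or less, so the sign is not particular to the 163 genes.

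**Figure D4:**
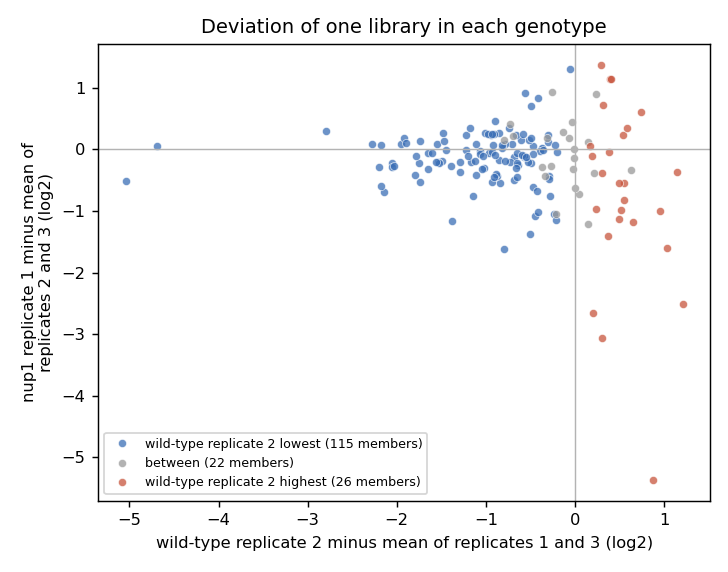
Each point is 1 of the 163 genes, with the log2 deviation of wild-type replicate 2 from the mean of replicates 1 and 3 on the x axis and that of nup1 replicate 1 from the mean of replicates 2 and 3 on the y axis. The 115 blue points have wild-type replicate 2 as the lowest wild-type library, and the lowest points on the y axis are among the 26 red ones, which have it as the highest.

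Position on the chromosomes was not used by the rule. All 12 chromosomes held members, from 5 on chromosome 6 to 25 on chromosome 1. Set against the genes listed higher at stage 10 on the same chromosome, the share ran from 3.45% on chromosome 6 to 12.8% on chromosome 8, where 18 of 141 were members. These shares were not tested.

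Of the 163 genes, 31 (19.0%) had another within 100 locus numbers, which is up to 10 steps of the numbering, in 14 runs. Of these runs 3 held 3 genes and 11 held a pair. Of the 59 genes with d of -2.5 or less at stage 10 alone, 2 (3.39%) lay in such a run. The share was 27.2% of the 525 genes listed higher at both stages, 39.3% of the other 1128 listed higher at stage 10 alone and 75.3% of all 3453 listed genes. It follows the length of the list in these 5 groups, so the shares were not tested against each other.

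The run on chromosome 9 had the highest values among those of 3. LOC_Os09g10200 stood at 1.48, 0.673 and 1.60 FPKM in wild type and 34.4, 22.7 and 41.8 FPKM in nup1 (d = 3.90 ± 0.32). LOC_Os09g10230 stood at 1.11, 0.356 and 3.05 FPKM and at 12.6, 14.0 and 21.0 FPKM (d = 2.86 ± 0.51). LOC_Os09g10260 stood at 1.52, 0.368 and 6.29 FPKM and at 73.4, 68.5 and 85.3 FPKM (d = 4.71 ± 0.71). In all 3 loci wild-type replicate 2 was the lowest library and nup1 replicate 3 the highest, and no other listed locus lay between them. Without wild-type replicate 2 their d was 3.70, 2.49 and 4.16, so LOC_Os09g10230 would miss the threshold.

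On chromosome 2, the adjacent numbers LOC_Os02g12700, LOC_Os02g12710 and LOC_Os02g12720 had d of 3.65 ± 0.81, 2.66 ± 0.45 and 2.85 ± 0.38. The outer pair was lowest in wild-type replicate 2, at 0 and 0.176 FPKM, while LOC_Os02g12710 was highest there, at 1.24 FPKM, and lowest in nup1 replicate 1, at 6.08 FPKM. Neighbours by number could differ in the order of their libraries, and without wild-type replicate 2 their d was 3.003, 2.84 and 2.55. Without nup1 replicate 2 it was 3.73, 2.28 and 3.01, so LOC_Os02g12710 would miss the threshold. The run LOC_Os03g39150, LOC_Os03g39220 and LOC_Os03g39240 on chromosome 3 had d of 3.44 ± 0.33, 2.76 ± 0.35 and 2.63 ± 0.33, with 1 other locus listed at stage 10 between them. Without nup1 replicate 2 their d was 3.46, 2.496 and 2.38, so LOC_Os03g39220 and LOC_Os03g39240 would miss the threshold.

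The pair on chromosome 11 had the largest median d of the runs, 4.74. LOC_Os11g10910 stood at 5.26, 0.927 and 10.5 FPKM in wild type and at 50.5, 67.3 and 101 FPKM in nup1 (d = 3.78 ± 0.81, and 3.07 without wild-type replicate 2). Its neighbour LOC_Os11g10920, given above, had a similar nup1 mean, 69.1 against 72.9 FPKM, from a lower wild-type mean, 0.278 against 5.56 FPKM. Whether neighbours are near-identical copies that share reads could not be checked, so values within a run may not be separate measurements.

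The locus next to AP37 by number was also a member. LOC_Os04g37580 stood at 4.99, 6.62 and 5.96 FPKM in wild type and at 43.3, 71.8 and 101 FPKM in nup1 (d = 3.34 ± 0.36). AP37 itself stood at 1.07, 1.24 and 2.00 FPKM and at 134, 170 and 245 FPKM. A further member nearby, LOC_Os04g37680, stood at 9.75, 11.2 and 21.0 FPKM in wild type and at 258, 347 and 352 FPKM in nup1 (d = 4.48 ± 0.35). All 3 loci had their lowest nup1 level in replicate 1 and their highest in replicate 3. They were picked after their values were seen.

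**Figure D5:**
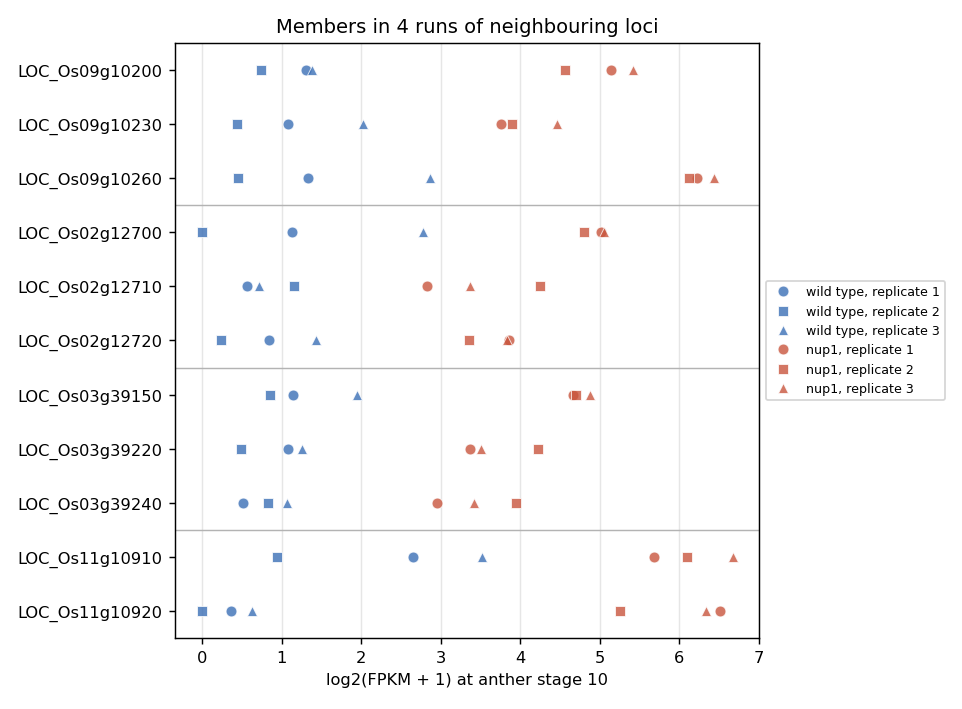
Log2(FPKM + 1) of 11 genes in 4 runs of neighbouring loci, separated by grey lines, with blue marks for wild-type and red marks for nup1 libraries of stage 10. In every row the red marks lie to the right of the blue ones, and wild-type replicate 2 (blue square) is the leftmost mark except in LOC_Os02g12710 and LOC_Os03g39240.

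The threshold of 2.5 cut through a continuous range. Just inside lay LOC_Os02g16610, LOC_Os08g15450 and LOC_Os11g30760, with d of 2.503, 2.504 and 2.512, or 2.71, 2.20 and 2.68 without wild-type replicate 2. Leaving out other libraries took them under the threshold too. LOC_Os02g16610 was at 2.07 without wild-type replicate 1, and LOC_Os08g15450 and LOC_Os11g30760 were at 2.30 and 2.38 without nup1 replicate 3. Just outside lay LOC_Os02g39590 with d of 2.497, LOC_Os03g59300 with 2.489 and LOC_Os01g12020 with 2.489. The last stood at 4.45, 5.40 and 7.57 FPKM in wild type and at 1.45, 122 and 174 FPKM in nup1, so it was kept out by nup1 replicate 1. In all, 213 listed genes had d of 2.5 or more at stage 10, and 43 of them were also in the stage 11 table, 35 as higher and 8 as lower. A gene that is missing from the stage 11 table was not analysed there, and its level at stage 11 is not known here.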

How the data were processed

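Values are FPKM, which the authors deposited in 1 table per stage with their direction for each gene. Per the labels and the series design text, HISAT2 placed the reads on the MSU rice genome, release 7, and Cufflinks estimated expression, versions not given in the sources used here. Both tables list genes the authors called, so unchanged genes are not analysed here. Depth is unknown: the lowest stage 10 value above 0 was 3.08e-46, so low values are no whole multiples of 1 fragment, and values at 0 may be failed estimates.

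The members, lists and tests were chosen with earlier results of these data known. From log2(FPKM + 1), d was computed per gene, and limma 3.58.1 in R 4.3.3 was fitted, with its trend option, to the 3358 genes whose 6 libraries averaged at least 1 FPKM, as all 163 members did. It was checked on simulated data. SE of d comes from the replicate SDs of both groups.

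Genes named are the 10 members with the largest d (no overlap, nup1 mean of 10 FPKM or more), the 10 highest in nup1, the 5 highest in wild type, the 3 on either side of the threshold, 4 runs and the 5 widest in nup1. A run joins members within 100 locus numbers. Symbols of list loci came from recall and are used only where the reference table (assembly ASM3414082v1) holds the symbol on the same chromosome, as for 31 of 51.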

Additional observations from a re-analysis of the deposited data

How the results depend on the processing

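The number of genes that met the rule depended most on its own limits. It was 342 with a pseudocount of 0.1 FPKM, 281 at a d of 2 or more and 87 at a d of 3 or more, against 163. With a pseudocount of 0.1 FPKM the median d was 4.10 against 3.05. Median centring, which lowers every d by 0.20, left 126 genes, and quantile normalization also 126, of which 124 were among the 163. With 1 library left out, 124 (without wild-type replicate 2) to 200 (without wild-type replicate 3) genes met the rule, and the median d ranged from 2.78 to 3.30. Of the 163, 158 to 162 then passed in limma, beside 892 to 1445 genes called higher (26.6% to 43.0% of the 3358 fitted). In either direction 1683 to 2586 of the fitted genes passed. No alternative turned the sign of d in any of the 33 named members. Under median centring, wild-type replicate 1 was the lowest library in 16 genes in place of 30, and replicate 2 in 123 in place of 115. Members in runs numbered 24 and 41 with limits of 50 and 200 locus numbers, chosen after seeing the data, against 31.

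With the replicate number as a block, 163 members passed in limma, against 161 without it. Of the 3358 fitted genes, 1378 (41.0%) then passed as higher, against 1338 (39.8%). In either direction 2499 passed, against 2449. The deviations of same-numbered libraries correlated at 0.038, 0.25 and 0.18 across genes, wild-type replicate 1 correlated best with nup1 replicate 3, and nothing in the labels says that the numbers pair libraries. With 3 libraries per group and unknown depth, the precision of values under 1 FPKM is not known.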
